A study of Mus musculus with 4 samples.

Results

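Chemokine ligands, the small secreted proteins that direct leukocyte migration, were examined in mouse embryonic fibroblasts that differed in Wip1 genotype label and in exposure to gamma radiation. The members were all genes whose platform symbol is Ccl, Cxcl, Cx3cl or Xcl followed by a number. This gave 33 of 18193 gene symbols, read by 51 probe sets, and the brightest probe set by mean signal stands for each gene. Receptors, and chemokines under other symbols, were not members. A further 4 probe sets assigned to several genes at once, among them those of the Ccl21 and Ccl27 families, were left out because no single gene could be named, and their signals reached at most 198.8.

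The 4 Affymetrix arrays each held RNA of 1 group. These were Wip1+/+ fibroblasts without irradiation (0 h), Wip1+/+ fibroblasts 4 h after 5 Gy, Wip1-/- fibroblasts without irradiation, and Wip1-/- fibroblasts 4 h after 5 Gy. The labels name no strain, embryo or passage, and no unirradiated culture kept to 4 h was analysed here, so time in culture and radiation cannot be told apart. Each comparison sets 1 array against 1, so no p-value is given, and the spread between cultures is unknown. Wip1 is the phosphatase encoded by Ppm1d, a negative regulator of the p53 and stress kinase pathways. The Ppm1d probe set with the highest mean had signals of 375 (0 h) and 364 (4 h) in Wip1+/+ cells, and 504 and 482 on the arrays labelled Wip1-/-. The second read 317 and 463, against 219 and 561. The signal was thus not lost on the arrays labelled Wip1-/-, and the labels do not say where the probes lie relative to the deletion, so these cells are called by their label.

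The unirradiated array labelled Wip1-/- stood apart. Over 18 spiked-in hybridization controls, the SD of the log2 ratio was 0.44 to 0.47 in the pairs of arrays that include it, and 0.07 to 0.10 in the other pairs. It enters the comparison of unirradiated genotypes and the irradiation comparison of cells labelled Wip1-/-. The identity of the cells was checked with marker lists. All 13 fibroblast markers, such as Col1a1 and Vim, were above the floor on every array, and 0 of 8 measured lymphocyte markers reached the filter used here. Of 18 macrophage markers, 17 reached it.

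Chemokines are named by the spacing of their first cysteines, as CC, CXC, CX3C and C, and they bind G-protein-coupled receptors that share ligands within a group. Fibroblasts are a known source of Cxcl12, which retains stem and progenitor cells through Cxcr4. They also make the monocyte attractants Ccl2 and Ccl7 and the neutrophil attractants of the Cxcl1 group when NF-kB is active. Ccl3, Ccl4, Ccl6 and Ccl9 are made largely by macrophages and other leukocytes in the mouse. Cxcl9, Cxcl10 and Cxcl11, the ligands of Cxcr3, and Ccl5 are induced by interferons and antiviral signalling.

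Signals under 46.5, the 40th percentile of all values, were set to that floor before ratios were taken, and a fold against the floor is a lower bound. Genes with a mean signal of at least 67.95, the median over probe sets, entered the comparisons. Of the 33 chemokine ligands 21 entered, and 12 did not. Of the 33, 12 were above the floor on all 4 arrays and 3 on none. Most of those that entered were dim: 15 had a mean under 200. Probe sets differ in brightness for the same amount of RNA, so levels are compared between arrays and not between genes. As error, the SD of log2 ratios among probe sets that read the same gene is given. It covers differences between probes and not between cultures.

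**Figure D1:**
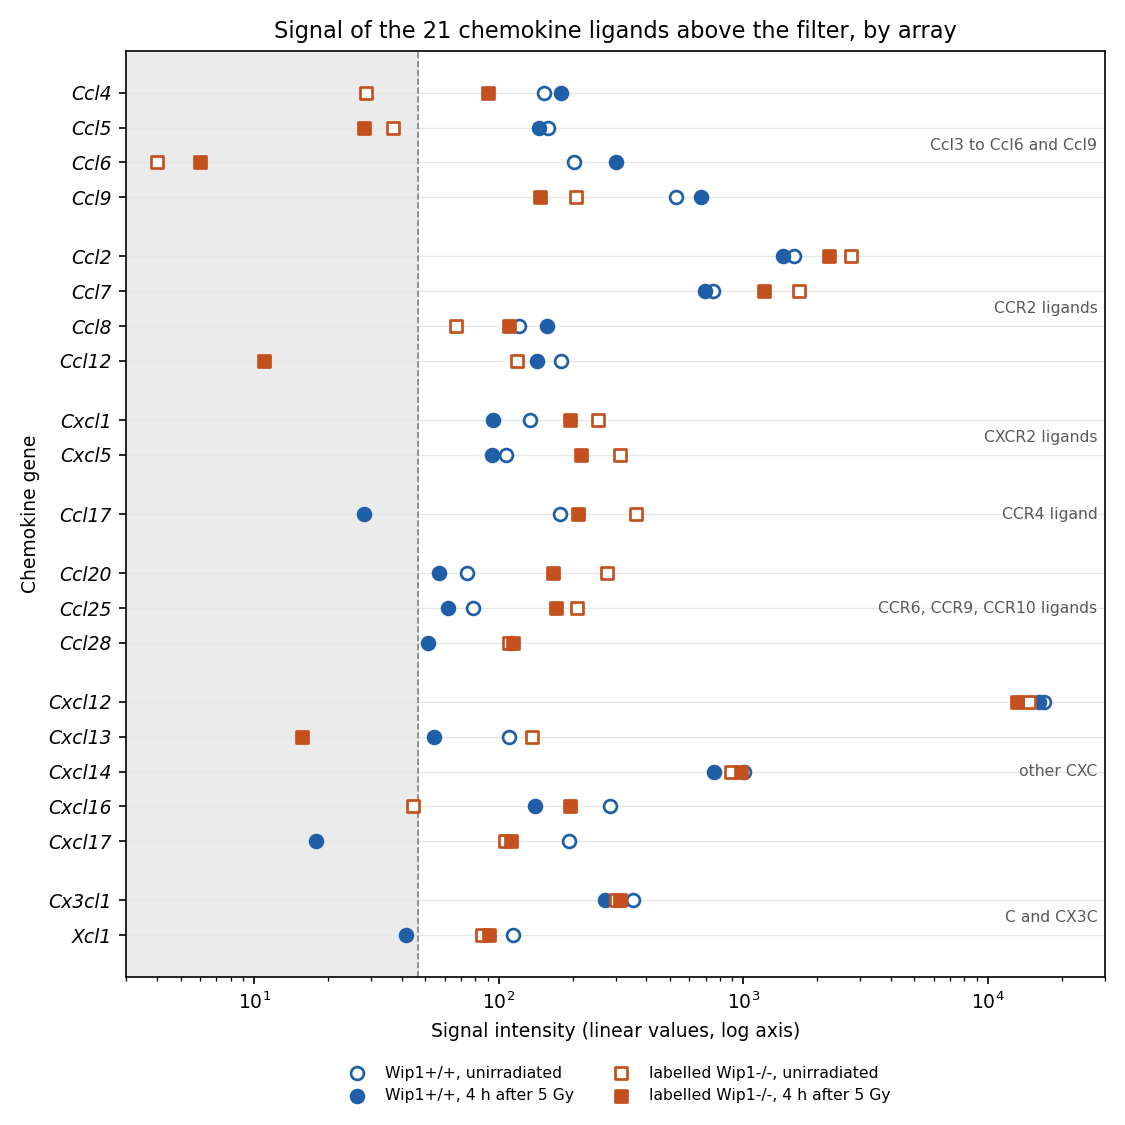
Signal intensity (log axis) of the 21 chemokine ligands that entered the comparisons, 1 row per gene, in groups by receptor or, for Ccl4, Ccl5, Ccl6 and Ccl9, by gene name; circles are Wip1+/+ arrays, squares arrays labelled Wip1-/-, open symbols unirradiated and filled symbols 4 h after 5 Gy. The grey zone lies under the floor of 46.5. Each gene is shown by its brightest probe set. Ccl4, Ccl5, Ccl6, Ccl8, Ccl9, Ccl12 and Cxcl12 have both squares to the left of both circles, while Ccl2, Ccl7, Ccl17, Ccl20, Ccl25, Cxcl1 and Cxcl5 have both to the right. The share of all genes with labels separate in this way was not counted.

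The comparison of genotype labels asked which chemokine genes differ between arrays labelled Wip1-/- and Wip1+/+, before and after damage. Both directions were seen. The ligands Ccl5, Ccl6 and Ccl9 were at least 2-fold lower on the array labelled Wip1-/- at both time points, while Ccl17, Ccl20, Ccl25 and Cxcl5 were at least 2-fold higher at both. Among all 11546 genes, 1.28% were at least 2-fold lower in both comparisons and 0.788% higher in both. For the 2711 genes with a mean signal under 200 these shares were 2.80% and 1.95%. The comparisons at 0 h and at 4 h share no array, and the labels do not say whether both came from 1 culture of each genotype.

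In unirradiated cells 5 of the 21 ligands were at least 2-fold lower on the array labelled Wip1-/- and 5 at least 2-fold higher. Of all genes, 6.83% were lower and 5.14% higher by that much, and of those with a mean under 200, 12.8% and 14.5%. Their median log2 ratio was -0.20, against 0.05 for all genes. After irradiation 4 of the 21 were lower and 7 higher, against 2.94% and 2.35% of all genes, and 8.56% and 7.38% of those with a mean under 200. The median log2 ratio was then 0.48, against -0.0048 for all genes. It was 0.00 once the 12 ligands under the filter were counted. The SD between probe sets was 0.65 in the unirradiated comparison and 0.41 in the irradiated one. For genes under a mean of 200 it was 0.81 and 0.62.

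Ccl4, Ccl5, Ccl6 and Ccl9, which draw in monocytes, macrophages or T cells, were at least 2-fold lower on the unirradiated array labelled Wip1-/-, and all but Ccl4 also on the irradiated one. Ccl6, a mouse macrophage chemokine, had signals of 203 (0 h) and 302 (4 h) in Wip1+/+ cells, and 4.0 and 6.0 in cells labelled Wip1-/-. Both Wip1-/- values lie under the floor, so Ccl6 was at least 4.36-fold lower without irradiation and at least 6.50-fold lower after it. Its second probe set gave the same direction, at least 2.66-fold and 2.76-fold.

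Ccl9, another mouse myeloid chemokine, was measurable on every array. It had signals of 531 (0 h) and 671 (4 h) in Wip1+/+ cells against 207 and 148 in cells labelled Wip1-/-, 2.56-fold lower unirradiated and 4.55-fold lower irradiated. The second probe set read 3.50-fold and 2.50-fold lower. No value of either label overlapped the other by either probe set. How often this holds among all genes was not counted, here or for the ligands below, so it is a description only.

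Ccl5 (RANTES), an attractant of T cells and monocytes, had signals of 158 (0 h) and 146 (4 h) in Wip1+/+ cells and 36.9 and 28.2 in cells labelled Wip1-/-. It was thus at least 3.40-fold and at least 3.13-fold lower. Ccl4 (MIP-1 beta) read 153 and 180, against 28.6 and 90.5. It was at least 3.28-fold lower unirradiated and 1.99-fold lower irradiated. Ccl3 (MIP-1 alpha) did not reach the filter. It had signals of 45.1 (0 h) and 117.9 (4 h) in Wip1+/+ cells, and 4.0 and 4.1 in cells labelled Wip1-/-. Ccl5 and Ccl6 were over the floor on the Wip1+/+ arrays alone, so that they entered through the group in which they are high. The mean of Ccl4 on the arrays labelled Wip1-/- was under the filter too, so the same holds for Ccl4.

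The ligands of Ccr2, the receptor that brings monocytes out of the bone marrow, went both ways. Ccl2 (MCP-1) had signals of 1612 (0 h) and 1445 (4 h) in Wip1+/+ cells and 2744 and 2236 in cells labelled Wip1-/-, which is 1.70-fold higher unirradiated and 1.55-fold higher irradiated. Ccl7 (MCP-3), its neighbour in the genome, read 751 and 697, against 1688 and 1209. It was 2.25-fold and 1.73-fold higher. The values of the 2 labels did not overlap for either gene, and both had a mean signal over 500, where the SD between probe sets was 0.55 unirradiated and 0.23 irradiated. Only Ccl7 passed 2-fold, and only without irradiation.

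The other Ccr2 ligands were dim and lay the other way. Ccl8 (MCP-2) had signals of 121 (0 h) and 158 (4 h) in Wip1+/+ cells, and 66.5 and 109.9 in cells labelled Wip1-/-, 1.83-fold and 1.43-fold lower. Ccl12 (MCP-5), found in mouse but not in human, read 179.0 and 143, against 119 and 11.0. It was 1.51-fold lower unirradiated and at least 3.08-fold lower irradiated. The second value rests on the irradiated array labelled Wip1-/- alone. The mean of Ccl12 on the arrays labelled Wip1-/- was under the filter, so Ccl12 also entered through the group in which it is high.

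Of 5 ligands of Cxcr2, the receptor of neutrophil recruitment, 2 entered, and Cxcl5 alone was at least 2-fold higher on the arrays labelled Wip1-/- at both times. Cxcl5 (LIX) had signals of 107 (0 h) and 93.7 (4 h) in Wip1+/+ cells and 313 and 217 in cells labelled Wip1-/-, 2.93-fold and 2.31-fold higher. Cxcl1 (KC) read 134 and 94.9, against 254 and 196, by its brightest probe set. That is 1.89-fold higher unirradiated and 2.07-fold higher irradiated. The other probe sets of Cxcl1 were 1.35-fold and 1.46-fold lower without irradiation and 3.56-fold and 1.19-fold higher after it, so its direction in unirradiated cells depends on the probe set. Cxcl2 (MIP-2), Cxcl3 and Cxcl15 did not reach the filter. Cxcl2 was over the floor only on the unirradiated array labelled Wip1-/-, the one that stood apart, at 97.1, and so was Cxcl3, at 80.8. Cxcl15, a lung chemokine, read 91.3 and 58.7, against 14.9 and 39.5, at least 1.96-fold and at least 1.26-fold lower.

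Promoters of these genes are shown because NF-kB, the factor that drives neutrophil attractants, has a short recognisable motif. The 250 bases before the start were searched on both strands for the NF-kB motif, GGG, any 2 bases and then TTTCC, and for an interferon response motif, GAAA, any 2 bases and GAAA. RefSeq (GRCm38.p6) held promoters for 23 of the 33 genes, matched by gene identifier. The remaining members could not be searched. The NF-kB motif was present in 5 of the 23 genes, Cxcl1, Cxcl2, Cxcl3, Ccl20 and Ccl9. By promoter this was 5 of 26 (19.2%), against 1.41% of all 32851 promoters. The interferon motif was present in 2 of the 23 genes, Cxcl10 and Cxcl14. By promoter this was 2 of 26 (7.69%), against 2.98% of all promoters. Cxcl1, Cxcl2 and Cxcl3 are printed because of their matches, a choice made after these were seen. In their windows, bases -99 to -50 counted from the start, capitals mark the NF-kB motif on either strand.
Cxcl1, chr5:90891146-90891195, plus strand: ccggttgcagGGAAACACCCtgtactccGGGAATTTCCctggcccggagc
Cxcl2, chr5:90903800-90903849, plus strand: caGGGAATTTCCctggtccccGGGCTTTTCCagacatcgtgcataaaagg
Cxcl3, chr5:90786002-90786051, plus strand: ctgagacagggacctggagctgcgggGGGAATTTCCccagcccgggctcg
Cxcl1 and Cxcl2 each held the motif at 2 places and Cxcl3 at 1. A match is a run of letters and says nothing about binding in these cells.

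Among ligands of mucosal and lymphoid receptors, 2 were higher on the arrays labelled Wip1-/- at both times. Ccl20 (MIP-3 alpha), the ligand of Ccr6 on Th17 cells and dendritic cells, had signals of 74.4 (0 h) and 56.8 (4 h) in Wip1+/+ cells. On those labelled Wip1-/- it read 278 and 166, 3.74-fold higher unirradiated and 2.92-fold higher irradiated. Ccl25 (TECK), the ligand of Ccr9 in thymus and gut, read 78.5 and 61.8, against 209 and 171, 2.66-fold and 2.77-fold higher. The second probe set of Ccl25 was 2.56-fold and at least 2.09-fold higher. The values of the labels did not overlap for Ccl20 or Ccl25. The mean of Ccl20 on the Wip1+/+ arrays was under the filter, so Ccl20 entered through the arrays labelled Wip1-/-, on which it is high.

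The promoters of Ccl20 and Ccl9 are shown as members that were, respectively, higher and lower on both arrays labelled Wip1-/- and that both hold the NF-kB motif. Each run covers the 250 bases before the start, with the motif in capitals.
Ccl20, chr1:83116516-83116765, plus strand: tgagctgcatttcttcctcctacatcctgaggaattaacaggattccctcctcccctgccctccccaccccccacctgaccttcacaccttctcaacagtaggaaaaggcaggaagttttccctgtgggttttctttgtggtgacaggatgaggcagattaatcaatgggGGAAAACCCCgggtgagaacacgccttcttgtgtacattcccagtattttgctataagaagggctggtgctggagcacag
Ccl9, chr11:83578637-83578886, minus strand: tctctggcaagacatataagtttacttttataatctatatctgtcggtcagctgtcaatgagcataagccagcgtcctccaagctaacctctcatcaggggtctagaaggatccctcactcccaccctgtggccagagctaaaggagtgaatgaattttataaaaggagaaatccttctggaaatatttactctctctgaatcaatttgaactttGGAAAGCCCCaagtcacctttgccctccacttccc
Both hold the motif on the reverse strand, at bases -80 to -71 from the start in Ccl20 and -35 to -26 in Ccl9. Ccl20 and Ccl9 were picked for their opposite directions, so these directions say nothing about the motif. Its part in the genotype ratios was not tested.

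Ccl17 (TARC), a ligand of Ccr4 on Th2 cells, had signals of 177 (0 h) and 28.0 (4 h) in Wip1+/+ cells and 364 and 211 in cells labelled Wip1-/-. It was 2.05-fold higher unirradiated and at least 4.54-fold higher irradiated. The lower label range ended at 177 and the upper began at 211. The second value rests on the irradiated Wip1+/+ array, the only one on which Ccl17 was at the floor. Over the mean log2 signal of both Wip1+/+ arrays the irradiated array labelled Wip1-/- was at least 2.32-fold higher for Ccl17.

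Without the unirradiated array labelled Wip1-/-, the irradiated one was also set against the mean of both Wip1+/+ arrays. Ccl6, Ccl9 and Ccl5 were then at least 5.32-fold, 4.04-fold and at least 3.26-fold lower. Ccl20, Ccl25 and Cxcl5 were 2.55-fold, 2.46-fold and 2.17-fold higher. The 7 ligands past 2-fold at both times stayed past it in this comparison. Every array in it was also used to pick the 7, so it is not independent of that choice and is no further support for them. Cxcl1, Ccl28 and Cxcl17, past 2-fold only after irradiation, had log2 ratios of 0.80, 0.58 and at least 0.24.

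**Figure D2:**
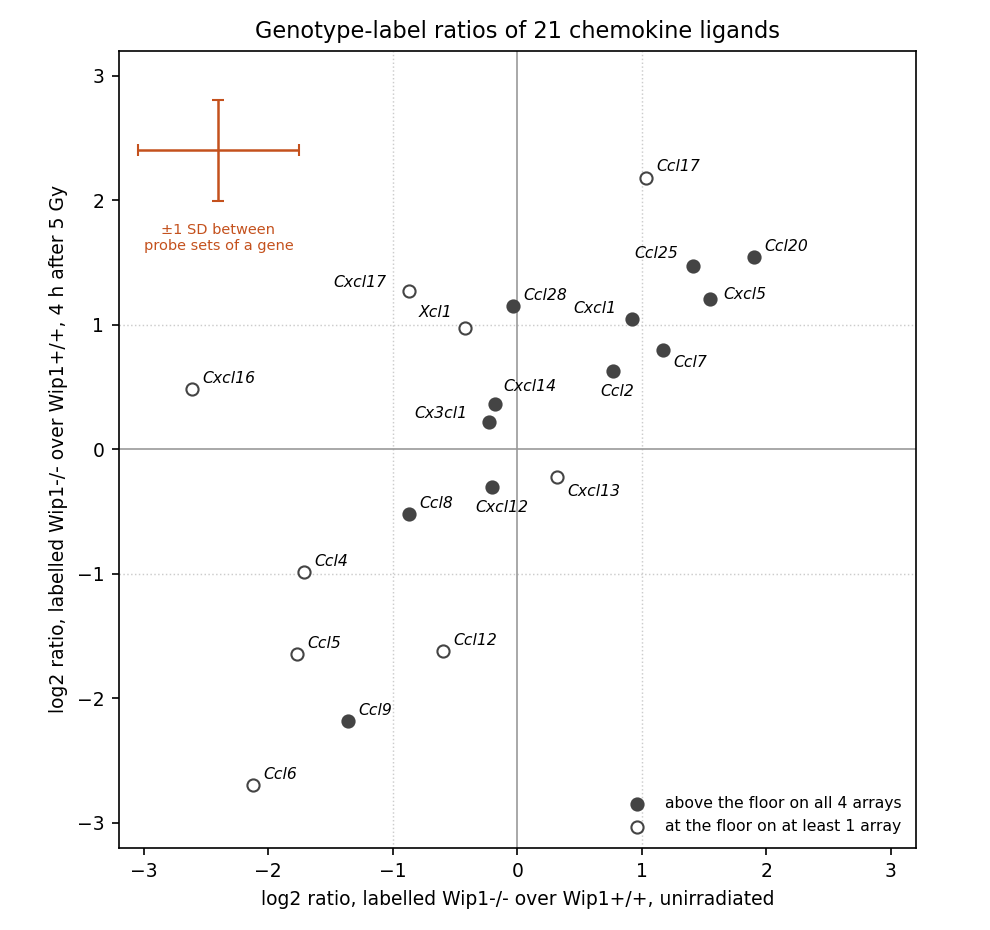
Log2 ratios of arrays labelled Wip1-/- over Wip1+/+ for 21 chemokine ligands, unirradiated on the horizontal axis and 4 h after 5 Gy on the vertical axis; open circles were at the floor on at least 1 array, dotted lines mark 2-fold and the cross gives 1 SD between probe sets of a gene. Ccl5, Ccl6 and Ccl9 lie past 2-fold at lower left, and Ccl17, Ccl20, Ccl25 and Cxcl5 past 2-fold at upper right.

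Cxcl12, Cxcl14 and Cx3cl1, chemokines of unstimulated tissue, were under 2-fold apart between the labels by their brightest probe sets, though not by every probe set. Cxcl12 (SDF-1) had signals of 16874 (0 h) and 16205 (4 h) in Wip1+/+ cells and 14675 and 13154 in cells labelled Wip1-/-, 1.15-fold and 1.23-fold lower. By the second probe set of Cxcl12 the labels overlapped, at 7654 and 6839 against 6674 and 7149. That is 1.147-fold lower unirradiated and 1.045-fold higher irradiated. Cxcl14, a chemokine of epithelium and stroma, read 1002 and 759, against 886 and 977. Its labels overlapped, and the ratio was 1.13-fold lower unirradiated and 1.29-fold higher irradiated. The second probe set of Cxcl14 was 1.78-fold and 1.94-fold lower. Cx3cl1 (fractalkine), a membrane-bound chemokine, read 352 and 270.3, against 301 and 314, within 1.17-fold of each other at both times. The second probe set of Cx3cl1 read 100.2 and 106, against 9.2 and 121. By it Cx3cl1 was at least 2.15-fold lower in unirradiated cells labelled Wip1-/- and at least 2.60-fold higher after their irradiation.

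For the remaining ligands that entered, the ratio of the brightest probe set lay on opposite sides of 1 at the 2 times. Cxcl16, a transmembrane ligand of Cxcr6, had signals of 285 (0 h) and 140.3 (4 h) in Wip1+/+ cells and 44.5 and 196 in cells labelled Wip1-/-. It was at least 6.12-fold lower unirradiated and 1.40-fold higher irradiated. The second probe set of Cxcl16 was lower at both times, at least 2.07-fold and 1.71-fold. Ccl28, a mucosal ligand of Ccr10, read 112 and 51.3, against 109.5 and 114. Of its other probe sets, 1 was 1.06-fold and 1.17-fold higher, and 1 was at least 1.13-fold higher and then at the floor for both labels. Cxcl17, a mucosal chemokine, read 194 and 17.8, against 106 and 112. Xcl1 (lymphotactin), a T and NK cell product, read 114 and 41.6, against 85.4 and 91.5. For Ccl28, Cxcl17 and Xcl1, by these probe sets, the irradiated Wip1+/+ array alone was low. Cxcl13, a B cell attractant of lymphoid follicles, read 110.0 and 54.3, against 137 and 15.6.

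The 12 ligands under the filter included all 3 ligands of Cxcr3. Cxcl9 read 35.8 or less on every array. Cxcl10 read 76.0 on the unirradiated Wip1+/+ array and 38.8 or less on the others. Cxcl11 read 38.6 to 70.2. Ccl1 and Ccl24 were at the floor on all arrays, and Ccl11 (eotaxin) and Ccl22 were over it only on the unirradiated array labelled Wip1-/-, at 81.4 and 89.6. Ccl27a, whose mean of 66.97 lay just under the filter, had signals of 118 (0 h) and 74.3 (4 h) in Wip1+/+ cells and 15.9 and 60.0 in cells labelled Wip1-/-.

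The irradiation comparisons asked whether chemokine genes respond to DNA damage within 4 h. No ligand that entered was at least 2-fold higher in Wip1+/+ cells, against 1.58% of all genes and 5.64% of those with a mean under 200. There, 6 of the 21 were at least 2-fold lower, against 1.50% of all genes and 5.86% of those with a mean under 200. All 6 were dim: Ccl17, Cxcl17, Xcl1, Ccl28, Cxcl13 and Cxcl16. Their folds were at least 3.81, at least 4.16, at least 2.46, 2.18, 2.03 and 2.03. Of the 21, 17 had a ratio below 1, with a median log2 ratio of -0.35, against 0.01 for all genes and an SD between probe sets of 0.37 (0.60 for genes under a mean of 200). Where these 6 genes had several probe sets the brightest was not matched: the other probe set of Cxcl16 was 1.06-fold higher, and those of Ccl28 and Cxcl13 were 1.02-fold higher or at the floor on both arrays. Ccl3, under the filter, was at least 2.54-fold higher.

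In cells labelled Wip1-/-, Cxcl16 was at least 4.21-fold higher after irradiation by its brightest probe set. Of all genes, 5.70% were at least 2-fold higher. Cxcl13 and Ccl12 were at least 2.95-fold and at least 2.55-fold lower, against 4.62%. For genes with a mean under 200 these shares were 11.0% and 15.4%. The median log2 ratio of the 21 was -0.16, against -0.03 for all genes, with an SD between probe sets of 0.62. By the brightest probe sets, Cxcl13 was the single ligand past 2-fold the same way in both genotypes. Among all genes 0.312% were lower in both, and 1.25% of those with a mean under 200. The second probe set of Cxcl13 was at least 1.17-fold higher in cells labelled Wip1-/- and at the floor on both Wip1+/+ arrays.

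The ligands with a mean signal of 500 or more differed little with irradiation. Ccl2 was 1.12-fold lower in Wip1+/+ cells and 1.23-fold lower in those labelled Wip1-/-. Ccl7 was 1.08-fold and 1.40-fold lower, and Cxcl12 1.04-fold and 1.12-fold lower. Cxcl14 was 1.32-fold lower and 1.10-fold higher. For genes of this brightness the SD between probe sets was 0.18 in Wip1+/+ cells and 0.54 in those labelled Wip1-/-. By the brightest probe sets, 14 of the 21 ligands were under 2-fold in both irradiation comparisons. Of all genes 87.7% were, and 66.6% of those with a mean under 200. Cxcl1 is among the 14, but its other probe sets rose past 2-fold in cells labelled Wip1-/-. They went from 99.6 to 218.7 and from 70.0 to 168.0. In Wip1+/+ cells they went from 145.4 to 183.5 and from 94.4 to 47.2. The response of Cxcl1 to irradiation thus depends on the probe set. Cx3cl1 is also among the 14, and its second probe set went from 9.2 to 120.9 in cells labelled Wip1-/-. The irradiation comparisons and the genotype comparisons are built from the same arrays, so their values are not independent.

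**Figure D3:**
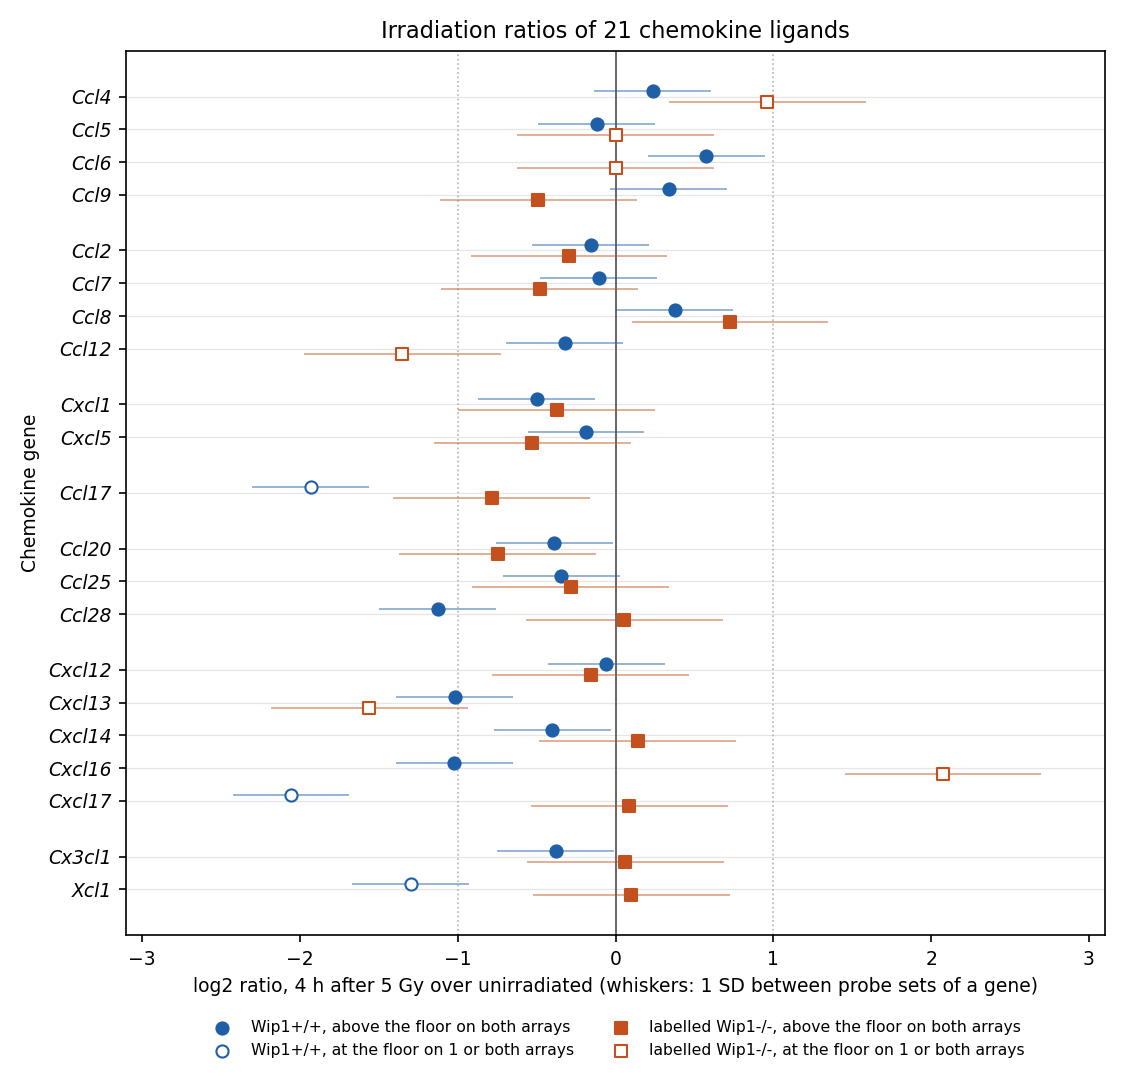
Log2 ratio of irradiated over unirradiated arrays for 21 chemokine ligands, in Wip1+/+ cells (circles) and cells labelled Wip1-/- (squares); open symbols involve a signal at the floor, whiskers are 1 SD between probe sets of a gene and dotted lines mark 2-fold. Most points lie between the dotted lines, and Cxcl16 lies past 2-fold on opposite sides, at -1.02 and 2.07.

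Ccl3, Ccl4, Ccl5, Ccl6, Ccl9 and the ligands of Ccr2 lie, in the mouse, in 2 tight clusters on the chromosome that also carries Ppm1d. By the order of protein-coding genes in the RefSeq annotation (GRCm38.p6), Ccl2, Ccl7, Ccl11, Ccl12, Ccl8 and Ccl1 stand next to each other. Ccl5, Ccl9, Ccl6, Ccl3 and Ccl4 form the second row of neighbours. From 53 to 58 coding genes separate the first cluster from Ppm1d, and 23 to 27 separate the second. In the second cluster all 4 genes that entered were lower on both arrays labelled Wip1-/-, with log2 ratios of -2.13 to -1.36 unirradiated and -2.70 to -0.99 irradiated. Of these, Ccl4, Ccl5 and Ccl6 entered through the Wip1+/+ arrays, so the filter itself favoured this direction. The share of all genes lower by any amount at both times was not counted. The first cluster was mixed: Ccl2 and Ccl7 were higher, Ccl12 and Ccl8 lower. Alleles linked to Ppm1d and the genotype label cannot be told apart in this design.

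**Figure D4:**
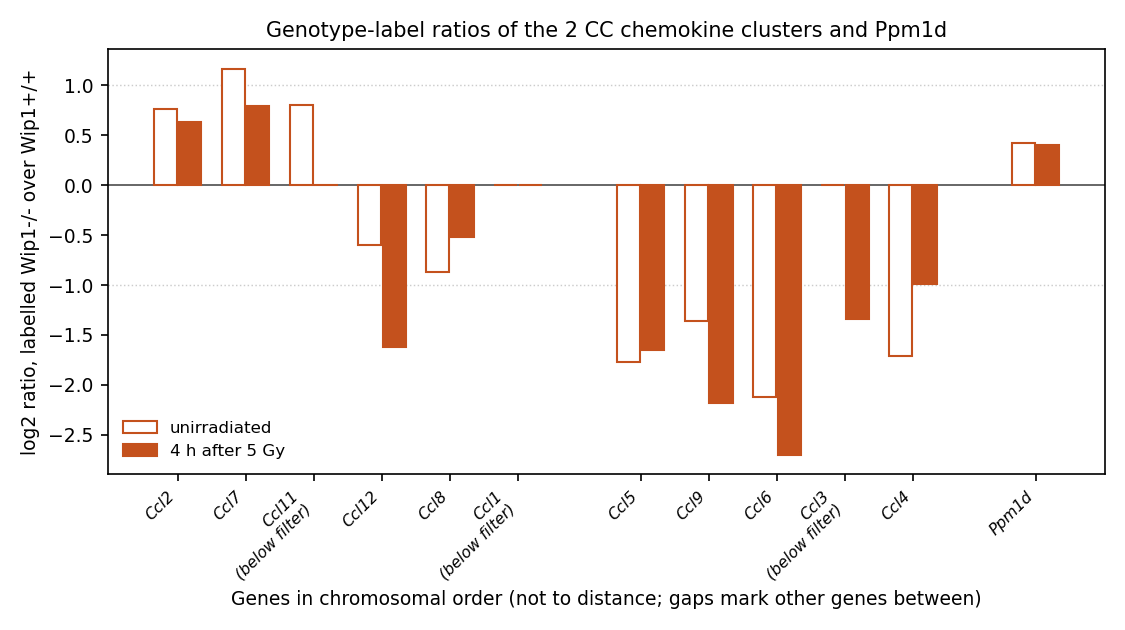
Log2 ratios of arrays labelled Wip1-/- over Wip1+/+ for the CC chemokine genes of both clusters and the Ppm1d probe set with the highest mean, in chromosomal order but not to distance; open bars are unirradiated, filled bars 4 h after 5 Gy, and ratios with a floored signal are lower bounds of the difference. Ccl5, Ccl9, Ccl6 and Ccl4 lie below 0 at both times, and Ccl2 and Ccl7 above 0.

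Macrophage markers were low on the same arrays as Ccl4, Ccl5, Ccl6 and Ccl9. The 18 macrophage markers had summed signals of 11174 and 11209 on the Wip1+/+ arrays and of 3284 and 2728 in cells labelled Wip1-/-. Of the 17 that entered, 10 were at least 2-fold lower unirradiated and 15 irradiated, and none was 2-fold higher, with medians of -1.54 and -1.67. Of all genes, 6.83% and 2.94% were lower by that much, and 5.14% and 2.35% higher. Lyz2, lysozyme of phagocytes, read 4533 and 4986 against 899 and 673. Cd68, a lysosomal protein of macrophages, read 370.3 and 351 against 105 and 121. Itgam was at the floor on all 4 arrays. In RNA from a whole culture, fewer cells of a type and less RNA per cell cannot be told apart, and the part of macrophages in the chemokine values was not tested. The 13 fibroblast markers had medians of 0.54 and 0.14, and 1 of them, Lum, was 3.53-fold lower in unirradiated cells. Of 5 endothelial markers that entered, 1 was 2-fold higher and 1 lower unirradiated, and 0 and 1 irradiated; Emcn was lower at both times, 4.56-fold and 2.07-fold. Of 4 epithelial markers none was 2-fold apart unirradiated, and 1 was higher irradiated.

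Chemokine receptors were near the limit of detection. Of 17 measured, 2 entered, Cxcr3 and Cxcr6, and neither was 2-fold apart in any comparison. Cxcr3 read 63.4 to 102.0 and Cxcr6 73.8 to 145.5. Ccr1, the receptor of Ccl9 and Ccl6, did not reach the filter, at 97.2 and 78.6 for Wip1+/+ and 26.9 and 36.3 for the other label. Among atypical receptors, which take up chemokines without signalling through G proteins, 4 of 6 entered. Ackr3, the scavenger of Cxcl12, had signals of 1494 (0 h) and 1509 (4 h) in Wip1+/+ cells and 1249 and 2000 in cells labelled Wip1-/-. Ackr1, which binds many inflammatory chemokines, was 5.23-fold lower in unirradiated cells labelled Wip1-/-, at 53.5 against 280, and 1.58-fold lower irradiated. Ackr2, a decoy for inflammatory CC chemokines, was at least 2.17-fold lower after irradiation in Wip1+/+ cells and 2.70-fold lower in those labelled Wip1-/-.

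Signalling upstream of the ligands was examined in 2 lists. Of 17 NF-kB and cytokine genes that entered, 1 was at least 2-fold higher and 1 lower in unirradiated cells labelled Wip1-/-, and none was 2-fold apart between irradiated labels, with medians of -0.18 and 0.01. Of all genes, 5.14% were higher and 6.83% lower by that much unirradiated, and 2.35% and 2.94% irradiated. Il6, a cytokine made with Ccl2 by activated fibroblasts, had signals of 170.1 (0 h) and 197 (4 h) in Wip1+/+ cells and 398 and 348 in cells labelled Wip1-/-. It was 2.34-fold higher unirradiated and 1.77-fold higher irradiated. Tnf and Il1a were at the floor on all arrays. After irradiation 0 of the 17 were 2-fold apart in Wip1+/+ cells, against 1.58% of all genes higher and 1.50% lower. In cells labelled Wip1-/-, 3 were higher (Nfkb2, Nfkbie and Nfkbiz) and 1 lower (Relb, an NF-kB subunit, by 2.14-fold), against 5.70% and 4.62% of all genes. Nfkbiz, a nuclear NF-kB cofactor, was higher after irradiation in both genotypes, 1.68-fold and 2.05-fold.

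Of 14 interferon signalling genes that entered, 3 were at least 2-fold lower in unirradiated cells labelled Wip1-/- and 4 after irradiation, none was 2-fold higher, and the medians were -0.11 and -0.09. Of all genes, 6.83% and 2.94% were lower by that much, and 5.14% and 2.35% higher. A ratio above 1 was seen for 6 of the 14 unirradiated and 7 irradiated. Irf7, which drives interferon genes, read 403 and 361 against 79.5 and 138. Irf9, which switches on interferon-induced genes, read 850.0 and 836 against 181 and 398. Ifih1, a sensor of viral RNA, read 693 and 670 against 157 and 165. Ifng was at the floor on all arrays. These sensors and factors were low on the same arrays as Ccl5, while Stat2 was 1.46-fold and 1.35-fold lower.

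**Figure D5:**
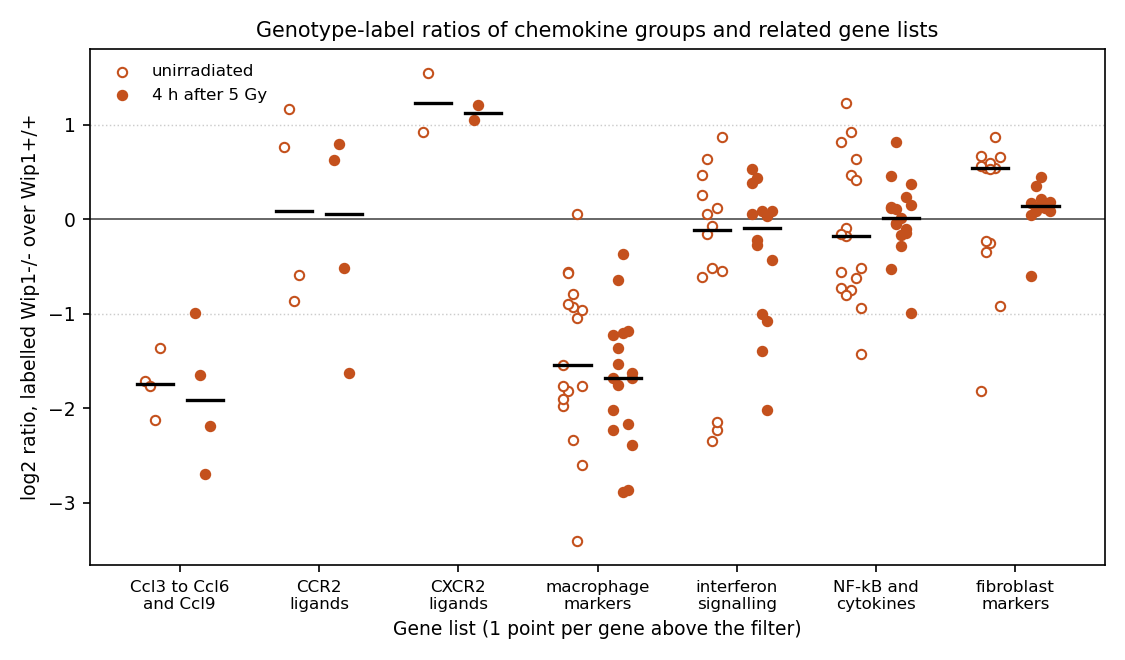
Log2 ratios of arrays labelled Wip1-/- over Wip1+/+ for genes above the filter in 3 chemokine groups and 4 related lists, 1 point per gene; open points are unirradiated, filled points 4 h after 5 Gy, bars are medians and dotted lines mark 2-fold. Ccl4, Ccl5, Ccl6 and Ccl9 and the macrophage markers lie mostly below -1, while the Cxcr2 ligands lie near or above 1.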

How the data were processed

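The authors deposited linear signal intensity for every probe set, made with GCOS per the submitters' processing notes. For its version, background step and scaling, the sources used here give nothing. In each of the 4 columns the mean after trimming 2% at each end was 500.0, so values were used as deposited. The number of arrays limits the precision. From 36.7% to 41.7% of probe sets per array lay at the floor of 46.5.

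Of 45101 probe sets, 64 were controls, 932 had several symbols and 9160 were unlisted. The other 34945 gave 18193 symbols, of which 11546 passed the filter. Symbols came from the platform annotation; all 33 members kept theirs in RefSeq. Ratios are log2 between 2 arrays, called at 2-fold without a test. The script was tested on simulated data.

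Chemokines with a 2-fold difference or a mean of 500 or more were named with all signals; other ligands are given by signal or range, and genes of other lists could be named if 2-fold apart the same way in both genotype or both irradiation comparisons, or as the brightest 2 of a list with no such gene. Stat2, Il6, Ackr1, Ackr3, Nfkbiz, Nfkb2, Nfkbie, Relb, Lum, Mif, Ccr1 and the genes given as at the floor were picked after their values were seen. Members and lists were chosen with earlier results of these data known. Alternatives changed normalization, floor, filter and probe-set choice. R 4.3.3 with limma 3.58.1 and Python 3.11.15 were used. Promoters were searched, and protein sequences were not used here.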

Additional observations from a re-analysis of the deposited data

Results flagged for a closer look

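By the brightest probe sets, Cxcl16 was the one ligand past 2-fold in opposite directions in the 2 irradiation comparisons. Its log2 ratio was -1.02 in Wip1+/+ cells and 2.07 in cells labelled Wip1-/-, the latter a bound because the unirradiated array labelled Wip1-/- read 44.5, under the floor. That array is the one whose spiked-in controls stood apart. The second probe set of Cxcl16 was 1.06-fold higher and at least 1.28-fold higher. The difference between the genotypes was not tested.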

How the results depend on the processing

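No paired analysis was possible because the groups compared share fewer than 2 replicate numbers, each group being 1 array. The 30 member ratios of at least 2-fold were recomputed 254 times in all. All 254 kept their direction, 13 were under 2-fold and 35 moved by more than the SD between probe sets. Ccl5, Ccl6, Ccl17, Ccl20, Ccl25 and Cxcl5 stayed past 2-fold in both genotype comparisons under the 8 alternatives that measured them, and Ccl9 under all 9. Part of these counts was fixed in advance. A change of filter leaves a ratio as it was, and so does the choice of probe sets for a gene with only 1. A lower floor can only widen a ratio that has a floored signal. The filter at the 67th percentile left 6 of the ligands. It gave 0 ligands lower after irradiation in Wip1+/+ cells and 0 higher and 0 lower in those labelled Wip1-/-. Between labels it gave 1 higher and 1 lower unirradiated, 0 and 1 irradiated, and 0 and 1 at both times. The cause was the filter itself, which leaves fewer genes. With no filter, 1 ligand was higher after irradiation in Wip1+/+ cells, and the median of the irradiated genotype comparison was 0.0. Taking the median of several probe sets gave 3 lower in Wip1+/+ cells and 1 lower in those labelled Wip1-/-. In the latter, 2 were higher under quantile normalization, with the floor at the 25th percentile, with no floor and without probe sets prone to cross-hybridization. Quantile normalization gave 8 ligands lower in the unirradiated genotype comparison. Against the mean of both Wip1+/+ arrays 4 were higher after irradiation. With the lower floor or none, Ccl4 in cells labelled Wip1-/- went from 28.6 (0 h) to 90.5 (4 h) and so passed 2-fold. Without the probe sets prone to cross-hybridization, Cxcl1 was read by a probe set at 70.0 and 168.0 in these cells. Against the mean of both Wip1+/+ arrays, Cxcl1, Ccl28 and Cxcl17 fell under 2-fold. By the median of probe sets, Ccl28, Cxcl13 and Cxcl16 did so in Wip1+/+ cells, and Cxcl13 in those labelled Wip1-/-. The causes of the shifts under quantile normalization were not tested. Medians of the irradiation comparison in cells labelled Wip1-/- ranged from -0.29 to 0.01 and so have no settled sign. Signal near the floor limits what can be seen for most ligands.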

Other observations

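Chemokines outside the symbol rule also differed between the labels. Pf4, the platelet chemokine also made by macrophages, had signals of 484.5 (0 h) and 552 (4 h) in Wip1+/+ cells and 158 and 192 in cells labelled Wip1-/-, 3.06-fold and 2.88-fold lower. Ppbp, a further Cxcr2 ligand, read 261 and 358 against 1145 and 804, 4.38-fold and 2.25-fold higher. Mif, a cytokine that binds chemokine receptors, was 1.65-fold and 1.17-fold higher.

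Over the 4 arrays, the genes whose centred log2 signals lay nearest to those of Ccl2 were Ipo9, 2700038G22Rik, Fam229b, Rasl11b and Crip1, with root mean square distances of 0.03 to 0.04. For Ccl5, itself over the floor on 2 arrays, they were Samd9l, 4930556N13Rik, Cd68, Art1 and Mndal, at 0.05 to 0.10. With 4 arrays and 11546 genes, such nearness is a description only. Cxcl10, over the floor on 1 array, is not described this way.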
